A study of Homo sapiens with 6 samples.

Results

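Genes that encode splicing factors and other RNA-binding proteins were examined in Nm-mut-seq libraries of chromatin-associated RNA (caRNA) from HepG2, a human liver cancer cell line. The set held 37 genes: 11 SR and SR-like genes, 9 hnRNP genes, 3 kinase genes, 2 RNA helicase genes, 2 paraspeckle protein genes and 10 genes of SR-related or other splicing proteins. Members were the positions of the 2 deposited tables that lay inside the GENCODE v44 bodies of these genes on the gene's own strand (hg38), without positions in small RNA genes. These were 4300 of the 176343 positions of the imbalanced table and 4587 of the 246881 of the balanced table, and 281 were in both. Listed positions were present in 35 of the 37 genes, and none was listed in CLK4 or NONO.

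All 6 libraries were made from the RNA of HepG2 cells that stays with chromatin, without rRNA and without short RNA, and the labels give no treatment of the cells. The groups differed in the reverse transcription. The imbalanced (biased) reaction held 2 µM dGTP, dCTP and dTTP beside 1 mM dATP, a supply under which reverse transcriptase tends to misread a 2′-O-methylated (Nm) G, A or C so that T appears in the read. The balanced reaction held 1000 µM of those 3 as well and served as the input. Each group had 3 libraries, and the ligated product of a replicate was divided between both reactions, so that replicate numbers pair the libraries.

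SR proteins bind exonic sequences through RNA recognition motifs and recruit the spliceosome through arginine-serine domains, while hnRNP proteins coat nascent transcripts and often act against splice site use. Many of these genes regulate themselves through unproductive splicing: a poison exon, which brings an early stop codon, is included, or an intron is kept and the transcript stays in the nucleus. Nm is a methyl group on the ribose that can sit on any base, placed in part by fibrillarin under the guidance of box C/D small nucleolar RNAs.

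Every position was put in one class by the annotation. Exons were those of the Ensembl canonical transcript. An intron was a retained intron if an exon of an annotated retained_intron transcript spanned it whole, and a poison-exon intron if an exon of an annotated nonsense-mediated decay transcript lay inside it. Such an exon is called a poison exon here, and whether it brings the early stop codon was not checked. Of the 408 introns, 119 were retained or poison-exon introns (92 retained and 36 with a poison exon, of which 9 were both), and 289 were other introns. Reads in an intron do not tell an unspliced precursor from a transcript that keeps the intron, and in such libraries more RNA copies and deeper sequencing of each copy cannot be told apart.

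The libraries summed to 17063930 to 22485865 reads over the listed positions under imbalanced dNTP and to 22974020 to 34367262 under balanced dNTP, of which the member genes held 0.349% to 0.420% and 0.277% to 0.321%. Depth per position was low. Its median at member positions was 14, 13 and 20 reads in imbalanced replicates 1, 2 and 3 and 18, 12 and 16 reads in the balanced ones. Every listed member position had at least 3 reads with T in some library under imbalanced dNTP but at least 1 under balanced dNTP, so depth, mutation ratio (reads with T over all reads) and base content describe positions chosen for a mutation and not whole transcripts. Hepatocyte-lineage markers were present, with 806 listed positions in ALB, 1122 in AFP and 6226 in APOB, although FGB had none and TTR none under imbalanced dNTP. The 6 markers of other cell types (PTPRC, PECAM1, VWF, COL1A1, CD68 and ACTA2) had no listed position in either table.

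A few genes held most of the listed positions. HNRNPC, whose protein binds uridine tracts in nascent RNA, had 1359, and HNRNPH1, whose protein binds runs of G, had 566. HNRNPA2B1, another hnRNP gene, followed with 345, then the DEAD-box helicase genes DDX5 with 265 and DDX17 with 257, and the SR protein gene SRSF1 with 227. The median member gene had 32.

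**Figure D1:**
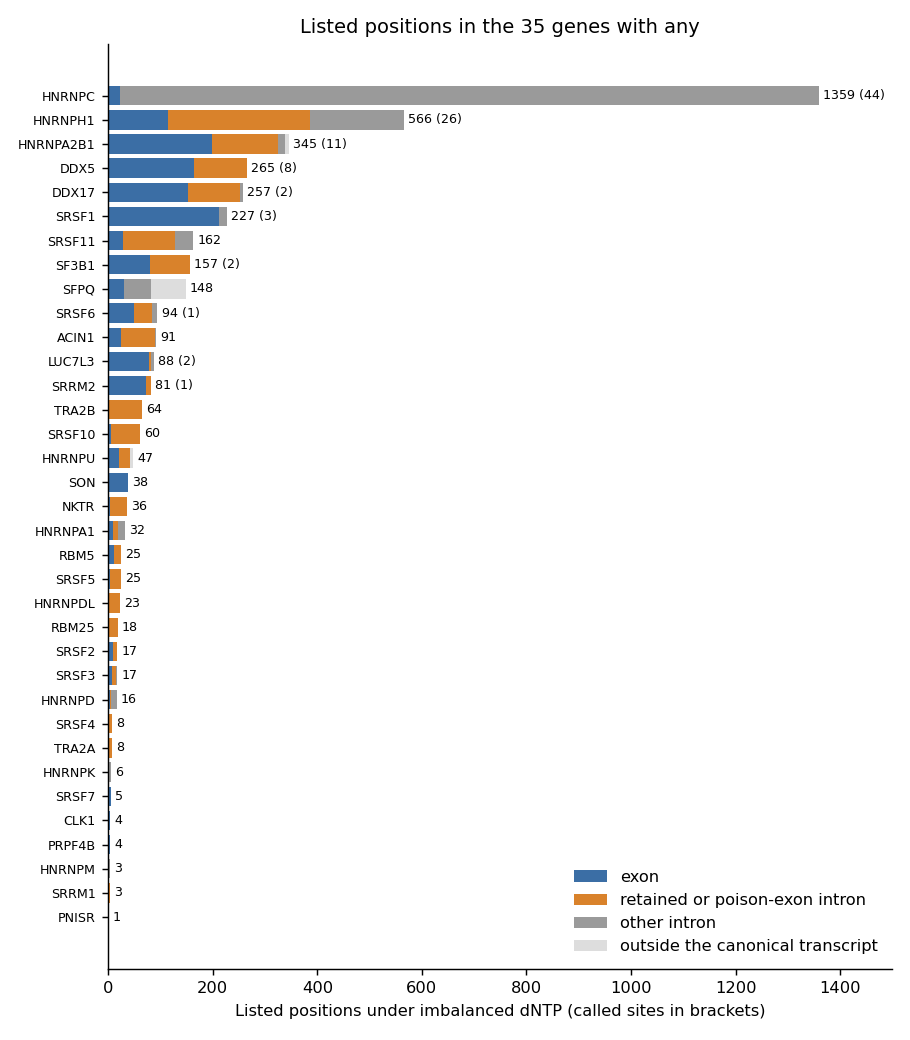
Listed positions under imbalanced dNTP (x axis, number of positions) in each of the 35 genes that had any (y axis), coloured by class, with called sites in brackets after the total. HNRNPC, at 1359, is almost wholly other introns, whereas HNRNPA2B1, DDX5, DDX17 and SF3B1 show mainly exons and retained or poison-exon introns.

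The hnRNP genes carried 2397 listed positions, of which 373 were exonic, 450 lay in retained or poison-exon introns and 1562 in other introns. The SR genes carried 687, with 326 in exons, 298 in retained or poison-exon introns and 63 in other introns. Of the SR genes, 9 of 11 have a poison-exon intron by this rule, and SRSF11, SRSF6, SRSF10 and TRA2B held most of the intronic positions of that family. The helicase genes had 522, the SR-related and other genes 538, the paraspeckle genes 148 (all in SFPQ) and the kinase genes 8 (4 each in CLK1 and PRPF4B). SRSF2, SRSF3, SRSF4, SRSF7, TRA2A, HNRNPD, HNRNPK, HNRNPM, SRRM1 and PNISR had 1 to 17 each.

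Sites were called where all 3 imbalanced libraries had at least 10 reads, at least 3 reads with T and a mutation ratio over 3-fold above the input library of their replicate. By these criteria 100 member positions were called, which is 2.33% of the listed positions. Of the 100, 83 were not listed under balanced dNTP and have no input counts, so they passed the input criterion by default. Only the other 17 were compared with input reads. At the 83, an input without mutated reads cannot be told from one too shallow to be listed. The background to the 2.33% was higher, at 16.8% of all listed positions (29651 sites) and 3.81% of those in other protein-coding genes. The study's further criterion on background at spike-in sites was not applied, so called sites here are not the study's list of Nm sites. With the libraries exchanged, balanced ratios were set against imbalanced ones. By that reading 1 of the 4587 balanced member positions was called, and 297 of 246881 in the whole series. Few could pass, because each balanced library needed 3 reads with T, and T was 2.03% to 2.36% of reads at member positions. The exchange therefore gives no rate of false calls under imbalanced dNTP. The lowest depth of a called site over the 3 libraries had a median of 21 reads (range 10 to 45), and 72 of the 100 sites had just 3 reads with T in at least 1 library. No member position had 50 reads in all 3 libraries.

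Called sites were found in 10 genes. HNRNPC had 44, HNRNPH1 26, HNRNPA2B1 11 and DDX5 8. SRSF1 had 3, DDX17, LUC7L3 and SF3B1 had 2 each, and SRSF6 and SRRM2 had 1 each. LUC7L3 is related to a U1 small nuclear ribonucleoprotein factor, SF3B1 is the U2 factor that engages the branch site, and SRRM2 is a scaffold of nuclear speckles. Of the called sites, 23 were exonic (16 in coding sequence and 7 in 3′ untranslated regions), 22 were in retained or poison-exon introns and 55 in other introns. All 55 were in HNRNPC (44) or in intron 4 of HNRNPH1 (11). Of the 77 intronic sites, 17 lay within 200 nt of a splice site. Of all called sites, 58 had another within 100 nt and 16 had one within 10 nt. No matching shares of listed positions or intron bases are set beside these counts. HNRNPC and HNRNPH1, with 44 and 26 of the sites, also had the most listed positions. The counts thus do not show whether called sites lie closer together than listed positions do.

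The sites whose mutation ratio had the highest mean, among those with 20 or more reads in every imbalanced library, are shown to display the sequence around them, 1 per gene and class, with 10 bases on each side and the mutated base in capitals. All are written 5′ to 3′ on the strand of the gene, which is the minus strand for each of these genes, with T for U (hg38). The first 4 are exonic, the next 3 lie in retained or poison-exon introns and the last 2 in other introns.
HNRNPH1, coding sequence, chr5:179623070-179623090: tccggggcttGccctggtctt
DDX5, coding sequence, chr17:64503470-64503490: aagtctacttGtatctacggt
SRSF1, 3′ untranslated region, chr17:58005202-58005222: tttaagtgatGtcatagacag
HNRNPA2B1, coding sequence, chr7:26197373-26197393: ggttgatgctGccatggctgc
HNRNPH1, intron 5, chr5:179618391-179618411: ttgttttcttGtataactaaa
HNRNPA2B1, intron 1, chr7:26197939-26197959: tagatcagctGaggcaatttt
DDX5, intron 11, chr17:64501603-64501623: actgttcactGtgatctgtgg
HNRNPH1, intron 4, chr5:179620065-179620085: attgaatgctGtcaacgttaa
HNRNPC, intron 2, chr14:21261931-21261951: gaactctaatGtgttctgatg
Every mutated base in these 9 windows is a G with a T before it.

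At the HNRNPH1 coding site the counts with T were 5 of 26, 5 of 25 and 9 of 35 reads in imbalanced replicates 1, 2 and 3, and 0 of 53, 0 of 48 and 2 of 54 in the balanced ones. At the HNRNPH1 intron 5 site they were 4 of 35, 4 of 20 and 11 of 45, against 0 of 52, 1 of 38 and 0 of 58. At the HNRNPC intron 2 site they were 5 of 23, 5 of 22 and 6 of 38, against 1 of 52, 0 of 25 and 0 of 37. At these 3 sites all imbalanced ratios lay above all balanced ones. The other 6 were not listed under balanced dNTP, where a position without a listed mutation has no depth in the table, so that their input ratio was taken as 0. At the HNRNPH1 intron 4 site the ratio was 20.8%, 20.7% and 19.4%, the narrowest spread of the 9. At the SRSF1 site it was 16.1%, 16.7% and 19.6%. The HNRNPA2B1 coding site had 23.8%, 11.5% and 13.6% at 21, 26 and 44 reads, and the DDX5 coding site 13.8%, 23.1% and 21.2% at 29, 26 and 33 reads. At these depths single reads moved the ratio of a library by a few percentage points.

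The deepest called sites are given with their counts. The deepest called site in a retained or poison-exon intron was in intron 2 of HNRNPH1, with 8 of 48, 5 of 45 and 8 of 53 reads (mean ratio 14.3% ± 2.86, SD, n = 3). The deepest in an other intron was in intron 1 of HNRNPC, with 7 of 47, 4 of 45 and 7 of 81 reads (10.8% ± 3.54). In exons the deepest were in HNRNPA2B1, with 4 of 43, 4 of 34 and 3 of 51 reads (8.98% ± 2.95), and in DDX5, with 3 of 43, 9 of 34 and 9 of 57 (16.4% ± 9.76). Because at least 3 reads with T were needed in each library, the lowest ratio that could be called was higher at shallower positions.

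Of the stretches with several called sites, one 30-base window is shown for each of 2 genes, with 4 sites in intron 2 of HNRNPC and with 3 sites in intron 5 of HNRNPH1. Intron 1 of HNRNPC also had stretches of 30 bases with 3 called sites. Both windows were chosen after their values were seen and are printed with the called bases in capitals, on the minus strand.
HNRNPC, intron 2, chr14:21262945-21262974: tactGgctGttaagtctatGaccttAtttt
HNRNPH1, intron 5, chr5:179618383-179618412: attGttttcttGtataactaaatacctGta
Mean ratios were 8.98% to 12.9% in the first window and 8.12% to 18.6% in the second, at lowest depths of 33 to 40 and 19 to 33 reads. Reads were up to 100 nt long, so that 1 read can cover all sites of such a window.

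Of the 22 called sites in retained or poison-exon introns, 3 lay inside a poison exon as defined here, in SRSF6, SF3B1 and HNRNPH1. They are shown because poison exons define part of this class, and were picked for that position.
SRSF6, intron 2, chr20:43459287-43459307, plus strand: gcagccttttGccattagacg
SF3B1, intron 4, chr2:197419033-197419053, minus strand: atagttatttGtagtcaggat
HNRNPH1, intron 2, chr5:179621878-179621898, minus strand: ggcttcagctGtgcaacttgg
The SRSF6 site had 3 of 15, 4 of 10 and 5 of 10 reads with T, the SF3B1 site 4 of 13, 5 of 16 and 4 of 19, and the HNRNPH1 site 6 of 29, 3 of 18 and 10 of 56. None of them was listed under balanced dNTP. At 10 to 15 reads the SRSF6 ratio ran from 20.0% to 50.0%, the widest range among the 100 called sites.

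Of the 100 called bases, 86 were G, 9 were A and 5 were C. The share of G was 86.0% (95% Wilson interval 77.9% to 91.5%, counting error only). G made up 31.6% of the G, A and C bases of the member genes, 53.7% of the positions listed under imbalanced dNTP and 35.9% of those listed under balanced dNTP. In single libraries the positions that met the criteria were 57.1% ± 2.21 G (SD, n = 3). The share was thus higher among sites that met them in all 3 libraries, and without replicate 1 or replicate 2 it was 73.7% and 76.4%.

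By class, listed G positions in exons came to 20.4 per 1000 G bases under imbalanced dNTP and 17.1 under balanced dNTP. A went the other way, from 7.16 under imbalanced to 12.1 under balanced dNTP, and so did C, from 8.75 to 18.6. Retained or poison-exon introns had 17.2 against 13.1 for G, 6.52 against 9.08 for A and 6.64 against 12.2 for C. Other introns had 7.65 against 4.27 for G, 3.50 against 3.75 for A and 3.10 against 3.45 for C. In all 3 classes G was therefore listed more often under imbalanced dNTP than under balanced dNTP and the other bases less often. Listed positions had at least 3 reads with T in some library under imbalanced but at least 1 under balanced dNTP. These directions thus describe the listings, which differ in threshold and depth. The 3 classes had a like base content, with G at 31.2% to 31.9% of G, A and C.

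G positions also had the higher mutation ratio. Over all listed positions, with no depth threshold, the T share of all reads was 11.0% ± 0.493 for G, 8.53% ± 0.561 for A and 8.62% ± 1.04 for C in exons (SD, n = 3). In retained or poison-exon introns it was 11.8%, 11.2% and 12.9% for G in replicates 1, 2 and 3, 9.28% ± 0.818 for A and 10.5% ± 1.40 for C. In other introns it was 11.1% ± 0.248, 9.16% ± 0.842 and 8.88% ± 0.525 for G, A and C. G was above A in every replicate of every class.

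The called base lay between 2 uridines (UNU) at 58 of the 100 called sites, or 58.0% (Wilson interval 48.2% to 67.2%). Among 2474 uncalled member positions with at least 10 reads in every imbalanced library the share was 30.3% (28.5% to 32.2%), and over all G, A and C bases of the member genes it was 9.08%. For G alone, 62.8% of 86 called sites (52.2% to 72.3%), 36.4% of 1284 uncalled positions and 10.4% of all G bases had this context. Called and uncalled positions were separated by the mutated reads themselves, so these shares describe the sites and no test was made.

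Exons were listed most densely, retained or poison-exon introns next and other introns least. Under imbalanced dNTP 1365 exonic positions were listed (11.8 per 1000 G, A and C bases), 1164 in retained or poison-exon introns (9.87) and 1692 in other introns (4.71), with 79 outside the canonical transcript (0.697). HNRNPC alone supplied 1336 of the 1692. Without it other introns had 356 listed positions, or 1.11 per 1000, while exons stayed at 11.8. Under balanced dNTP the values were 15.5, 11.2 and 3.83, and 1.27 for other introns without HNRNPC.

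**Figure D2:**
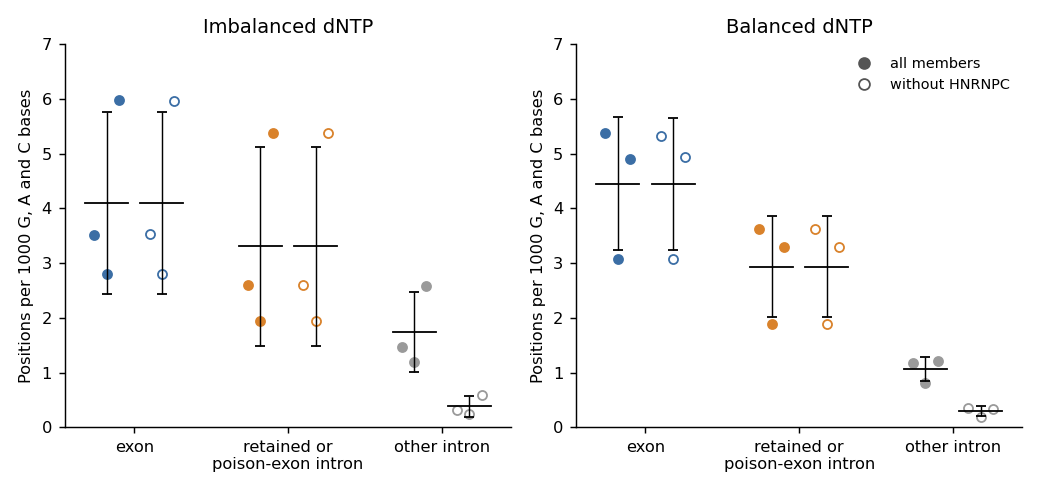
Positions with a depth of at least 10 per 1000 G, A and C bases of the class (y axis) in exons, retained or poison-exon introns and other introns (x axis), with at least 3 reads with T under imbalanced dNTP (left) and at least 1 under balanced dNTP (right). Each point is a library, bars are the mean and SD of 3 libraries, and open points leave out HNRNPC, without which other introns lie between 0.237 and 0.598 under imbalanced dNTP.

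Counted in each library on its own, exons were 1.35, 1.44 and 1.11 times as dense as retained or poison-exon introns in imbalanced replicates 1, 2 and 3 (1.30 ± 0.169, SD, n = 3). The density in retained or poison-exon introns was 1.77, 1.64 and 2.08 times that of other introns (1.83 ± 0.229). Without HNRNPC it was 8.02, 8.21 and 8.98 times (8.40 ± 0.511). The balanced libraries gave 2.71 ± 0.385 with HNRNPC and 10.1 ± 0.140 without it. In all of these the ratio was above 1 in 3 of 3 libraries, and HNRNPC decided its size. Where an exon of any noncoding or decay transcript also made a poison-exon intron, HNRNPC intron 2 and HNRNPH1 intron 4 changed class, and the ratio with HNRNPC was 4.76.

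Density differed among the kinds of marked intron, counted here under imbalanced dNTP. The 9 introns that were both retained and poison-exon had 37.3 listed positions per 1000 G, A and C bases, and 8 of the 9 had any. The 83 introns that were only retained had 8.86, and the 27 that only held a poison exon had 6.54. Other introns without HNRNPC had 1.11, with positions in 32 of 281. Intron length differed between these kinds, with medians of 1720, 372, 2993 and 876 nt, and its part in the densities was not tested.

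**Figure D3:**
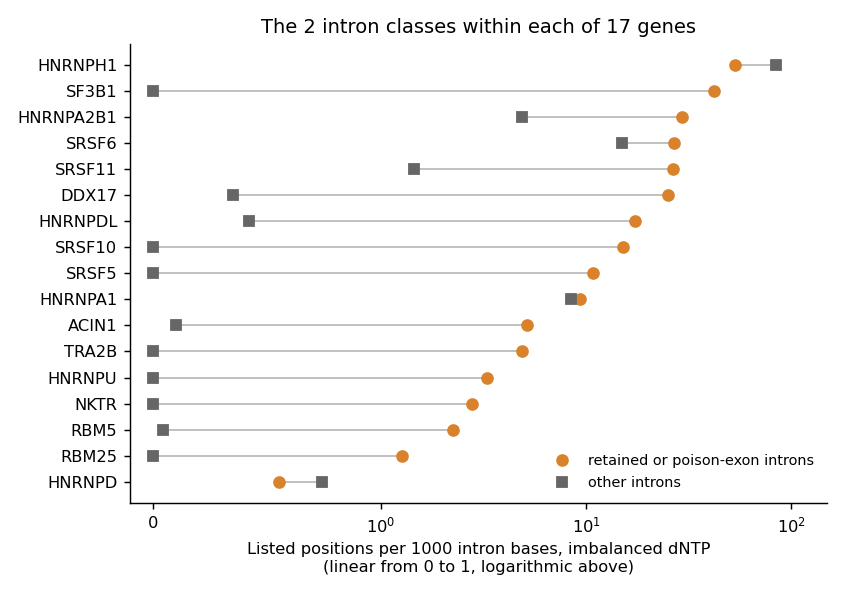
Listed positions under imbalanced dNTP per 1000 intron bases (x axis, linear up to 1 and logarithmic above) in retained or poison-exon introns (circles) and other introns (squares) of the 17 genes (y axis) that had both kinds and at least 10 intronic positions. Circles lie to the right of squares in 15 genes, and HNRNPH1 and HNRNPD show the reverse.

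Within genes, under imbalanced dNTP, the same order held in 15 of the 17 genes that had both kinds of intron and at least 10 listed intronic positions (88.2%). Of the 17, 7 had no position in other introns under imbalanced dNTP. Of 217 other protein-coding genes that met the same conditions, 122 had the higher density in retained or poison-exon introns (56.2%), and 60 had no position there. The shares are a description, with no test. SF3B1 had 41.9 per 1000 intron bases in the marked introns and 0 in the others, DDX17 25.1 against 0.353, HNRNPDL 17.3 against 0.422 and SRSF10 15.1 against 0. HNRNPH1, at 53.1 against 83.8, and HNRNPD, at 0.554 against 0.742, went the other way.

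Intronic positions were concentrated in 1 intron per gene. In 21 genes with at least 10 listed intronic positions, the leading intron held a median of 85.7% of them (range 21.7% to 100%) and a median of 26.9% of the intron length. The leading intron was a retained or poison-exon intron in 16 of the 21 genes. These include HNRNPA1, whose retained intron 2 tied with its other introns 3 and 8 at 5 positions each. In 20 of the 21 it was also the leading intron under balanced dNTP, HNRNPA1 being the exception. All 77 positions of SF3B1 introns were in intron 4 of 24, a retained and poison-exon intron with 4.74% of the intron length. All 62 of TRA2B, an SR-like regulator of alternative exons, were in the poison-exon intron 1, all 55 of SRSF10 in the poison-exon intron 2 and all 16 of RBM25, an arginine-rich splicing regulator, in the retained intron 9. Intron 2 of SRSF11, which holds 3 poison exons by the rule used, had 98 of 133. In ACIN1, a gene for an exon junction complex component, intron 9 had 55 of 66. Intron 5 of SRSF5 had 19 of 21, intron 7 of HNRNPDL 20 of 21, intron 3 of HNRNPU 18 of 21 and intron 6 of RBM5 12 of 13, while intron 6 of NKTR, a cyclophilin-related gene, had 17 of 33.

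Positions in poison-exon introns lay mostly outside the poison exons. Of 902 such positions under imbalanced dNTP, 136 were inside the 57 poison exons as defined here and 766 in the rest of the intron. Per 1000 G, A and C bases this was 16.9 inside and 9.55 outside, and under balanced dNTP 21.3 inside and 10.8 outside. These rates pool introns of unlike length and density and do not give the order within an intron. Under imbalanced dNTP, SRSF2 intron 2, SRSF6 intron 2, TRA2B intron 1, HNRNPH1 intron 2 and DDX5 intron 11 were denser inside. In the others with a position listed under imbalanced dNTP, the rest of the intron was denser. Under balanced dNTP introns went both ways. Genes differed. The poison exons of DDX5 intron 11 had 168 per 1000 against 98.0 in the rest of the intron, SF3B1 intron 4 had 66.0 against 66.2, HNRNPA2B1 intron 1 46.3 against 63.9, and SRSF11 intron 2 4.95 against 45.9. Of the 36 poison-exon introns, 24 had any position listed under imbalanced dNTP.

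Depth at listed positions differed between classes by a few reads. Its median in imbalanced replicates 1, 2 and 3 was 14, 13 and 20 reads in exons, 13, 11 and 18 in retained or poison-exon introns and 16, 14 and 22 in other introns. Retained or poison-exon introns were lower than exons by 1.67 ± 0.577 reads and lower than other introns by 3.33 ± 0.577, in 3 of 3 replicates each (p = 0.25 in a two-sided exact paired permutation test, which cannot give less with 3 pairs). The balanced libraries had 19, 12 and 17 reads in exons, 16, 10 and 14 in retained or poison-exon introns and 19, 13 and 18 in other introns. Without HNRNPC the difference between other introns and exons was 0.167 ± 0.764 reads (exact p = 1).

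The mutation ratio was close in the 3 classes. At 10 reads or more, the T share of imbalanced reads was 9.56%, 9.25% and 9.90% in exons, 10.2%, 9.91% and 11.7% in retained or poison-exon introns and 9.59%, 9.46% and 10.5% in other introns. Retained or poison-exon introns exceeded exons by 1.03 ± 0.696 percentage points and other introns by 0.762 ± 0.432, in 3 of 3 replicates each, while other introns exceeded exons by 0.271 ± 0.283 (two-sided exact paired permutation test, p = 0.25 for each of the 3 differences and the same after Benjamini-Hochberg adjustment). Under balanced dNTP the shares were 1.83% ± 0.0499, 2.25% ± 0.170 and 1.68% ± 0.0894.

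The ratio was lower at deeper positions in every class. From 10 to 19 reads it was 11.9% ± 1.24 in exons, 12.7% ± 2.49 in retained or poison-exon introns and 12.1% ± 2.00 in other introns. From 20 to 49 reads it was 8.12% ± 0.875, 8.79% ± 0.938 and 8.74% ± 0.699. Positions are listed for their reads with T, which raises the ratio of shallow ones. When positions with at least 10 reads and 3 with T in 1 replicate were read in the other 2, the ratio was 6.73% ± 0.136 in exons, 7.54% ± 0.293 in retained or poison-exon introns and 7.71% ± 0.350 in other introns. Both intron classes stayed above exons in that reading, by 0.815 and 0.980 percentage points (exact p = 0.25 each), and the order of the 2 intron classes turned, with a difference of -0.165 ± 0.575 (exact p = 0.75).

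**Figure D4:**
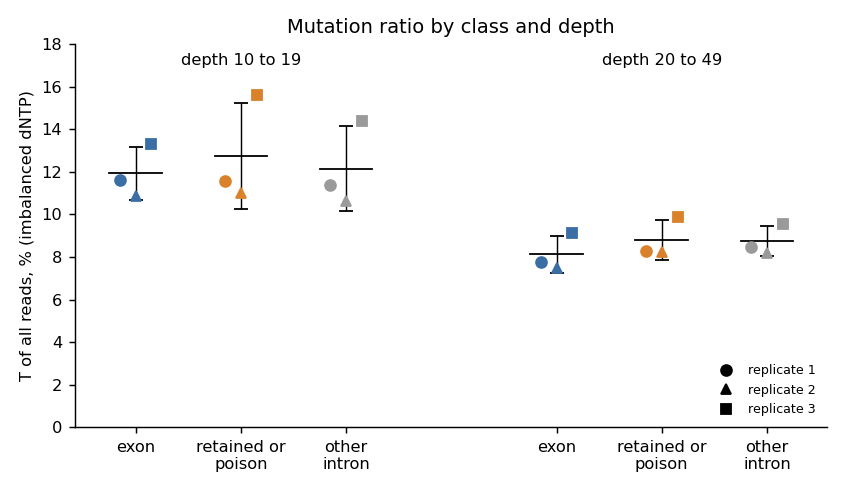
Share of reads with T under imbalanced dNTP (y axis, percent) at listed positions of each class, for depths of 10 to 19 reads (left) and 20 to 49 reads (right). Points are the 3 replicates and bars the mean and SD. Classes overlap within a depth range, with means of 11.9% to 12.7% on the left and 8.12% to 8.79% on the right.

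HNRNPC had 1336 of its 1359 positions in other introns, and HNRNPM had all of its 3 there. None of the 8 introns of HNRNPC is annotated as retained or poison-exon by the rules used here. The same holds for the introns of SRSF1, SFPQ, HNRNPM and PRPF4B. Intron 2, of 29081 nt (chr14:21234230-21263310), had 805 listed positions and 17 called sites, and intron 1, of 5961 nt (chr14:21263337-21269297), had 480 and 27. Median depth in intron 1 was 21, 18 and 27.5 reads in the imbalanced libraries and 34, 22 and 32 in the balanced ones. In intron 2 it was 14, 12 and 19, and 20, 14 and 19. Intron 1 was the deeper of the pair in all 6 libraries.

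Along the HNRNPC gene the density of listed positions was highest within 10 kb of its start. It was 102 and 107 per 1000 G, A and C bases in the first and second 5 kb, 50.0 in the next and 34.1 after that, and 1.24 to 10.5 beyond 35 kb. Under balanced dNTP the same bins began at 59.2 and 58.2 and ended between 5.27 and 10.5. Of the 44 called sites, 37 lay in the first 10 kb. Median depth was 20, 17 and 26 reads in the first bin and 10, 9 and 16 in the bin from 35 to 40 kb, and its part in the density was not tested.

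**Figure D5:**
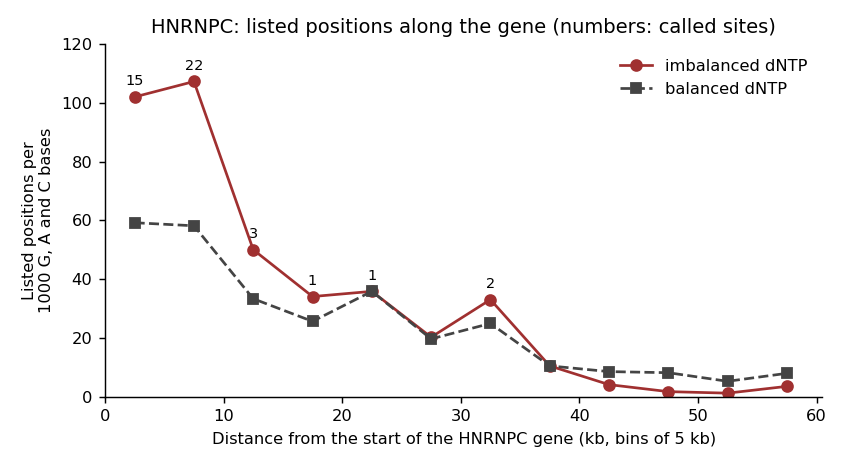
Listed positions per 1000 G, A and C bases of HNRNPC (y axis) against the distance from the start of the gene (x axis, bins of 5 kb) under imbalanced (circles) and balanced dNTP (squares), with the number of called sites above each bin that has any. Both lines are lower further along the gene, at 102 and 59.2 in the first bin and at 3.55 and 7.98 in the last.

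In HNRNPH1 the intronic positions were concentrated in 4 neighbouring introns. Its introns 2, 3, 4 and 5 had 113, 161, 190 and 169 listed positions per 1000 G, A and C bases, whereas intron 1 had 5.87. Intron 4 (chr5:179619408-179620891) is neither retained nor poison-exon in the annotation used, and held 177 positions and 11 called sites. Intron 5 (chr5:179618324-179619268), a retained intron, held 100 and 8, and the poison-exon intron 2 (chr5:179621398-179623036) 129 and 5. Median depth in intron 4 was 23, 21 and 33 reads under imbalanced and 50.5, 29 and 43.5 under balanced dNTP. Over the whole gene the T share of reads at listed positions was 7.88%, 8.35% and 8.80% in the imbalanced libraries and 1.83%, 1.89% and 1.69% in the balanced ones. Its mean share of 8.34% ± 0.461 was the lowest of the 12 members described by library, and its median depth of 21, 20 and 30 reads the highest.

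HNRNPA2B1 and the helicase genes combined exonic and intronic positions. HNRNPA2B1 had 198 in exons and 126 in retained or poison-exon introns, 110 of them in intron 1 (chr7:26197733-26200571), with a T share of 9.67%, 8.75% and 9.86% against 1.48%, 1.78% and 1.83%. DDX5 had 164 in exons and 101 in introns, all of which are retained or poison-exon, with 79 in intron 11 (chr17:64500774-64502009), at 9.02%, 8.07% and 8.92% against 1.35%, 1.45% and 1.33%. DDX17 had 153 in exons and 99 in intron 11 (chr22:38488116-38492055), a retained and poison-exon intron, at 10.5%, 11.7% and 12.1% against 2.06%, 2.38% and 2.47%. In each of these genes all imbalanced shares lay above all balanced ones, which partly follows from the listing of imbalanced positions for 3 reads with T.

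In SRSF1, 212 of 227 positions were exonic, and none of its introns is retained or poison-exon. Its T share was 10.7%, 10.9% and 9.73% under imbalanced and 1.74%, 1.81% and 1.68% under balanced dNTP, and its 3 called sites were all exonic. All 227 SRSF1 positions, 93 of 94 in SRSF6, all 32 in HNRNPA1 and 5 of 25 in RBM5 also lay in another annotated gene of the same strand, whose reads cannot be told apart from theirs. Sequence shared with other loci bears on few positions: 62 of the 4300 had a match of at least 95% identity over at least 90 nt of their 101-nt context elsewhere in hg38, 61 of them in exons, and none of the 100 called sites did. SRSF6 had 49 exonic and 34 poison-exon intron positions, at 13.0%, 10.7% and 12.2% against 2.02%, 2.74% and 2.38%. SF3B1 had 80 exonic and 77 intronic, at 11.0%, 11.4% and 12.2% against 1.95%, 1.86% and 2.41%.

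LUC7L3 and SRRM2 were mainly exonic, with 79 of 88 and 73 of 81 positions, and so was SON, a speckle protein gene, with 37 of 38. LUC7L3 had 12.4%, 14.1% and 11.6% T against 1.88%, 1.86% and 2.89%, and SRRM2 10.8%, 9.67% and 11.0% against 2.28%, 2.73% and 2.17%. SFPQ, with no called site, had 30 positions in exons, 51 in introns and 67 outside its canonical transcript, at 14.9%, 14.3% and 14.2% against 2.59%, 2.33% and 2.55%. Median depth in SFPQ was 10, 9 and 12 reads. CLK1, a kinase that phosphorylates SR proteins, had 4 positions at 8.5, 5 and 12 reads, with 11.8%, 18.2% and 14.9% T. Of the 12 members described by library, SFPQ and CLK1 had both the highest mean T shares, at 14.5% and 14.9%, and the lowest depths.

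Positions listed in both tables have counts in all 6 libraries. All of them had 3 or more mutated reads in an imbalanced library but 1 or more sufficed in a balanced one, so the values compared also chose the positions, and this listing favours a higher share under imbalanced dNTP. With at least 10 reads in all 6 libraries, 199 member positions of 13 genes were fitted among 32284 in the series, in one model across all of them with the replicate as a block (edgeR quasi-likelihood test, Benjamini-Hochberg). At an adjusted p under 0.05, 18 member positions had a higher mutated share under imbalanced dNTP and 0 a lower one (edgeR). At an unadjusted p under 0.05 there were 23 higher and 0 lower, and DESeq2 also called 0 lower. The direction of these counts describes the listed positions. The 18 are 9.05% of the members tested, against 73.9% of all positions with a higher share and 0.0558% with a lower one. Depth differed: no member position had 50 reads in every library, while 21838 of the 32284 had at least 100. Among positions with a lowest depth of 20 to 49, 12 of 73 members (16.4%) and 34.2% of all were called, and from 10 to 19, 6 of 126 (4.76%) and 10.1%. Without the block 76 were called, with DESeq2 40, and without any 1 replicate 0 or 1.

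The 18 positions lay in HNRNPC (8), HNRNPH1 (8), SRSF1 (1) and DDX5 (1). The smallest adjusted p was that of the HNRNPH1 intron 5 site printed above, with a log2 change of 4.70 in the odds of T (edgeR, adjusted p = 0.00234), followed by the HNRNPH1 coding site with 4.22 (edgeR, adjusted p = 0.00235). The SRSF1 position, in an exon (chr17:58006477, an A), had 4 of 16, 5 of 16 and 5 of 20 reads with T against 0 of 36, 0 of 27 and 1 of 38, a log2 change of 4.77 (edgeR, adjusted p = 0.00615). By class 4 of 62 exonic, 2 of 45 retained or poison-exon and 12 of 92 other intron positions were called. Summed over the 199, the T share was 8.67%, 9.24% and 8.91% under imbalanced and 1.27%, 1.32% and 1.26% under balanced dNTP (difference 7.66 percentage points), which the same listing favours, so no test is given.

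Against other protein-coding genes, members had more of their intronic positions in retained or poison-exon introns, 37.5%, 36.4% and 40.0% in the 3 imbalanced libraries against 14.3%, 14.3% and 14.2%. The difference was 23.7 ± 1.92 percentage points, and without HNRNPC it was 62.0 ± 1.06 (two-sided exact paired permutation test, p = 0.25 each). Leaving out HNRNPC was chosen after seeing the data, and no gene was left out of the others beside it. Such introns also take up more of the members' intron length, 24.9% (27.1% without HNRNPC) against 10.2% in other protein-coding genes. The share of positions was 1.52 ± 0.0738 times the share of length in members, 2.82 ± 0.0363 times without HNRNPC and 1.39 ± 0.00809 times in the others. HNRNPC, with no such intron, adds to the denominators alone.

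The T share at listed positions was 9.96% ± 0.586 in members and 8.03% ± 0.715 in other protein-coding genes, higher in 3 of 3 replicates (difference 1.94 ± 0.141, exact paired permutation test, p = 0.25). When A2M, DHRS2, FNDC3B, APOB, FN1 and RBM39 were left out of the others, the difference was 0.454 ± 0.502 and its direction held in 2 of 3 replicates (exact p = 0.5). Median depth at these positions was 17, 16 and 21 reads in members against 18, 17 and 21, and against 15, 14 and 18 without those 6 genes. The mix of depths differed: in replicate 1, 2 exonic member positions had 50 reads or more, against 5924 in other genes. From 10 to 19 reads the mean T share was lower in members, at 11.9% in exons, 12.7% in retained or poison-exon introns and 12.1% in other introns. Other genes had 12.4%, 13.7% and 13.2%. From 20 to 49 reads members were higher, at 8.12%, 8.79% and 8.74% against 7.33%, 7.71% and 8.39%. The part of depth was not tested.

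A list of 86 further splicing genes was listed less often. Of these, 46 had a position under imbalanced dNTP, and the median was 1 against 32 in the members. The members and this list were chosen with earlier results of these data known, and the counts were not adjusted for gene length. The contrast can therefore follow from the choice of genes. RBM39, a gene for a splicing factor related to U2AF, had 2036 positions and 192 of the 208 called sites of the list. Called sites were 208 of 3603 listed positions with RBM39 and 16 of 1567 without it. They were 100 of 4300 in the members and 4581 of 120189 in other protein-coding genes. CCNL2, a cyclin linked to splicing kinases, had 219 and 8, and the export helicase gene DDX39B 128 and 3.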

How the data were processed

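Chromatin-associated RNA of HepG2 cells was fragmented, ligated and reverse transcribed under balanced or imbalanced dNTP, with 3 libraries each and single-end sequencing. The authors trimmed reads with Cutadapt, removed duplicates by molecular identifiers, aligned to hg38 with TopHat2, allowing mismatches and several placements, and used JACUSA to count bases. As deposited, the values are raw counts of A, C, G and T reads, depth and reference-matching reads per position, strand and library, for positions with a mutation to T. Versions are not given in the sources used here. No column of per-sample values went unused.

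Positions were assigned to genes and classes by GENCODE release 44 with pandas 2.3.3 in Python 3.11.15, and all 176343 imbalanced reference bases matched hg38 on the listed strand. Of the positions in member genes, 27 were left out because they lay in small RNA genes. Sites were called by the criteria of the study's methods except the one on background at spike-in sites, which was not applied. An input ratio was taken as 0 where the balanced table did not list the position. For mutated and unmutated counts the quasi-likelihood test of edgeR 4.0.16 (R 4.3.3) was used, with a term per library, the replicate as a block and Benjamini-Hochberg adjustment over 32284 positions. The script was tested on simulated data. Classes were compared over libraries with exact paired permutation tests in SciPy 1.17.1, and copies were sought with BLAST 2.17.0.

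Replicate numbers pair the libraries because the labels say that both reactions used the same ligated product. Depth deviations of same-numbered libraries correlated at 0.746, 0.590 and 0.871 over 24432 positions listed in both tables, and imbalanced replicate 2 correlated as closely with balanced replicate 1, at 0.599. The study's methods call the replicates biological.

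Values per library were given for the members with most called sites and the leading member of each family, 12 in all. Sites named were, in each class, the 4 with the highest mean ratio at a depth of at least 20 and the 4 with the highest lowest depth, with at most 1 per gene and class. The members and lists were chosen with earlier results of these data known. Alternatives on thresholds, annotation, tools (DESeq2 1.42.0) and left-out replicates were computed. Wilson intervals cover counting error only. Values of 1 further gene on the list of other splicing genes are not reported here.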

Additional observations from a re-analysis of the deposited data

How the results depend on the processing

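The 100 called sites became 57 at a depth of at least 20, 0 at a depth of at least 50, 10 with at least 5 reads with T, 64 with a ratio of at least 0.1 and 17 when the balanced table had to list the position. Without 1 replicate, which also asks for agreement of fewer libraries, they were 197 to 318. The count was 95 to 101 under 8 other settings. The share of called sites in retained or poison-exon introns, 22%, was 50% where an exon of any noncoding transcript marked a poison-exon intron. The 18 positions with a higher mutated share by edgeR were 76 with no replicate block, 40 with DESeq2, 3 with Fisher's exact test in each replicate and 0 to 1 without 1 replicate.

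For the mutated share, retained or poison-exon introns minus exons turned to -0.647 percentage points at called sites, and minus other introns to -0.745 at called sites, -0.0334 with exons of any protein-coding transcript and -0.165 where positions were chosen in 1 replicate and read in the other 2. The depth of other introns minus exons turned to -1.67 reads at called sites. The share of G, 86%, was 73.7% to 78.2% without 1 replicate. The density ratio of 1.83 was 8.4 without HNRNPC, 2.71 in the balanced table, 1.36 at a depth of at least 20, 2.17 with exons of any protein-coding transcript, 4.76 with the wider poison-exon definition and 1.7 to 1.93 without 1 replicate. These density settings and the reading in the other 2 replicates were chosen after seeing the data, and the cause of these changes was not tested. The comparison with other protein-coding genes without HNRNPC was also chosen after seeing the data. A depth of at least 50 gave no value for the class shares, the base share, the mutated share or the density ratio. Low depth limits all site values here: no member position had 50 reads in every imbalanced library.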
